A study of Mus musculus with 6 samples.

Results

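The hyaluronan-based matrix of neural tissue was examined in mouse motoneuron cultures through 10 genes: the lecticans Vcan, Acan, Bcan and Ncan, the link protein genes Hapln1, Hapln3 and Hapln4, the tenascin gene Tnr, and the hyaluronan synthase genes Has2 and Has3. They were taken by gene symbol, and all 10 were found among the 39174 genes of each library. The set had been chosen by its FPKM values in these same 6 libraries, by genotype and replicate number, so levels and genotype differences of the 10 genes are given as a description, with no p-value, and SEs and intervals only describe the spread between libraries. The cultures came from Nmd-/- animals (3 libraries) and Nmd+/+ animals (3 libraries) of a strain labelled CD-1, and the age of the animals is not given in the labels. Both copies of Ighmbp2 in Nmd-/- animals bear the neuromuscular degeneration (nmd) mutation, in a helicase gene whose human counterpart is mutated in spinal muscular atrophy with respiratory distress. The mutation impairs splicing of Ighmbp2, leaves some normal product, and is present in every cell type of the culture. Separate animals or cultures are not stated for the replicates, so their spread may be technical in part. The values are FPKM, the fragments of a gene scaled by its transcript length and by the total of its library.

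Lecticans are secreted proteoglycans that bind hyaluronan with one end and tenascins with the other, and carry chondroitin sulfate chains in between. Link proteins fasten a lectican to hyaluronan, tenascin-R joins lecticans to each other, and hyaluronan synthases make the hyaluronan strand at the cell membrane. In the developing nervous system this matrix is loose and rich in versican and neurocan, and after birth part of it condenses around certain neurons, spinal motoneurons among them, as perineuronal nets that hold aggrecan, brevican, link proteins and tenascin-R.

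The mutated gene, Ighmbp2, averaged 0.754 ± 0.142 FPKM over the Nmd-/- libraries and 1.28 ± 0.17 FPKM over the Nmd+/+ libraries (SD, n = 3 each). The cultures held RNA of several cell types, and of the 7 motoneuron markers in the files 1 reached a mean of 1 FPKM, with Chat, whose enzyme makes acetylcholine, at no more than 0.0692 FPKM. The label as motoneurons is thus not borne out by these defining markers, and each level below is that of the culture as sequenced. The 10 neuron markers summed to between 840.5 and 1525 FPKM in Nmd-/- libraries and between 797.5 and 1629 FPKM in Nmd+/+ libraries. The 11 radial glia and astrocyte markers summed to between 624 and 855 FPKM in Nmd-/- libraries and between 737 and 872 FPKM in Nmd+/+ libraries. Replicate 2 of each genotype stood apart: its 11 fibroblast and meningeal markers summed to 192.5 FPKM in Nmd-/- and 159 FPKM in Nmd+/+, against between 6.81 and 9.39 FPKM in the other 4 libraries. Xist, a mark of female cells, was near 0 in Nmd-/- replicate 3 and Nmd+/+ replicate 2 and lay between 224.5 and 272.6 FPKM in the other 4 libraries. In cultures, fewer cells of a type and less RNA per cell cannot be told apart.

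Neurocan was the lectican with the highest mean, and the level of the 10 genes spanned more than 2 orders of magnitude. By mean FPKM over the 6 libraries the order was Ncan (15.7), Vcan (8.98), Bcan (2.87), Tnr (2.49), Has3 (1.26), Hapln4 (0.398), Hapln3 (0.193), Hapln1 (0.1198), Has2 (0.0976) and Acan (0.0564). The order held in all 6 libraries for Vcan over Bcan, Tnr over Has3, Has3 over Hapln4 and Hapln4 over Hapln3. Ncan exceeded Vcan in 4 of 6 libraries, Bcan exceeded Tnr in 4, Hapln3 exceeded Hapln1 in 5, Hapln1 exceeded Has2 in 4, and Has2 exceeded Acan in 3. These neighbours in the order therefore did not stand apart beyond their spread. Aggrecan, the main lectican of mature nets, thus lay at the bottom, at no more than 0.0815 FPKM in any library.

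**Figure D1:**
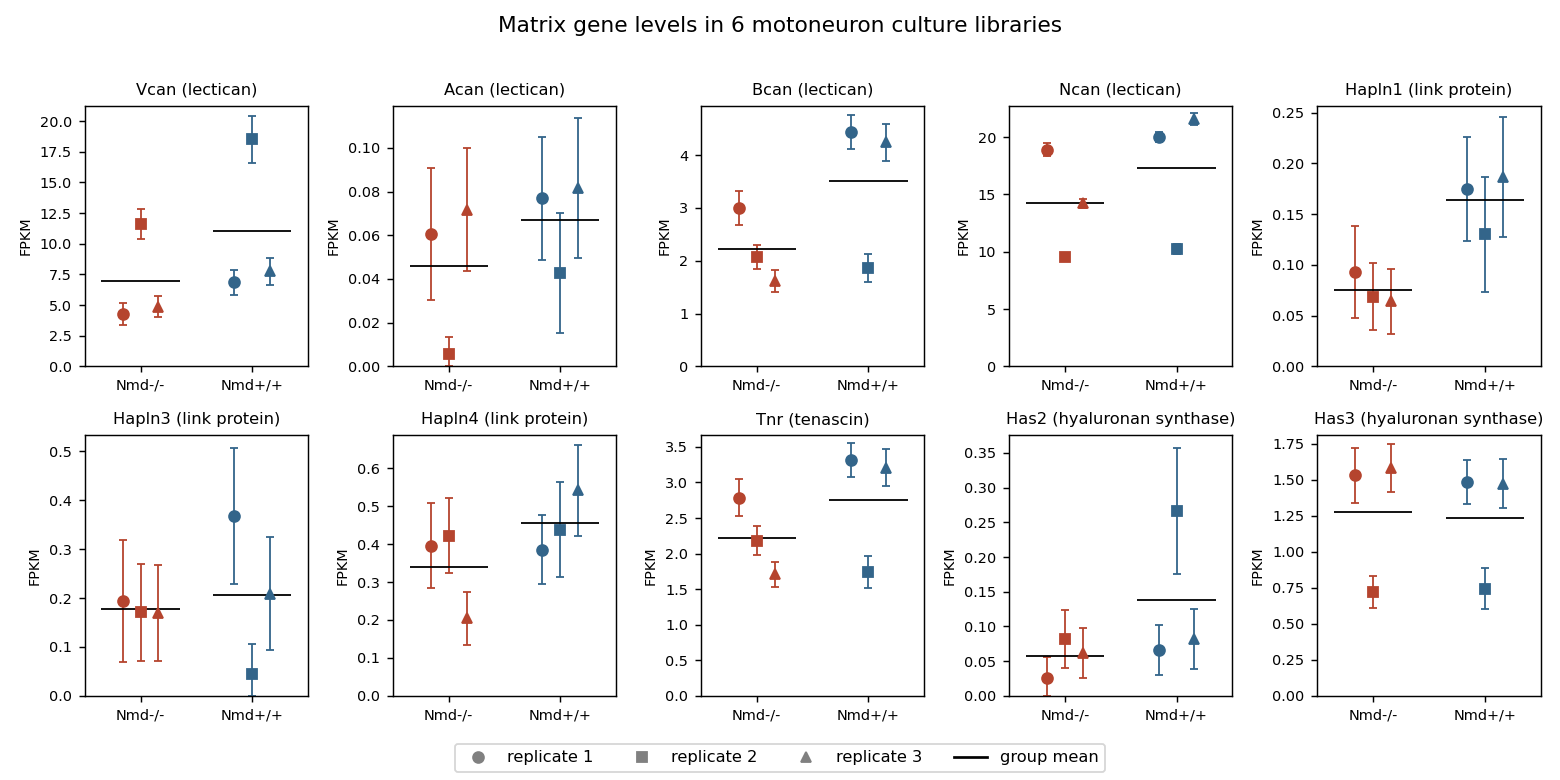
FPKM (vertical axes, each starting at 0) of the 10 matrix genes in Nmd-/- libraries (left, red) and Nmd+/+ libraries (right, blue), with the marker shape giving the replicate number, the bars the 95% interval of Cufflinks and the black lines the group means. Vcan is highest in replicate 2 of both genotypes, at 11.6 FPKM in Nmd-/- and 18.5 FPKM in Nmd+/+, where Ncan and Has3 are lowest within their genotype.

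Lectican and link protein genes lie side by side in the mouse genome (GRCm38, coordinates as in the files and counted from 1), and here the lectican of a pair was the higher one in 3 of 4 pairs. Vcan (ENSMUSG00000021614, chromosome 13, 89655312 to 89742509) lies 43479 bases from Hapln1 (89540636 to 89611832). Ncan (chromosome 8, 70093085 to 70120873) lies 2222 bases from Hapln4 (70083529 to 70090862), Bcan (chromosome 3, 87987531 to 88000356) lies 21393 bases from Hapln2, and Acan (chromosome 7, 79053483 to 79115099) lies 1927 bases from Hapln3 (79117027 to 79131018). No other protein-coding gene of the files lay between the partners of any pair. The mean FPKM of the lectican was 74.95 times that of its neighbour for Vcan and Hapln1, 39.55 times for Ncan and Hapln4, and 26.6 times for Bcan and Hapln2. For Acan and Hapln3 it was 0.293 times. The link protein genes were thus low whichever lectican they adjoined.

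The promoters of Vcan, of its neighbour Hapln1, and of Ncan and Bcan are shown because these genes carry the differences described below. RefSeq windows (GRCm38.p6) of 250 bases before and 50 after the start were available for 7 of the 10 genes. Capitals mark matches, on either strand, to 3 short motifs: the TATA box (TATAAA), the CCAAT box (CCAAT) and the GC box (GGGCGG), which do not overlap here.
Vcan (chr13:89742463-89742762, minus strand): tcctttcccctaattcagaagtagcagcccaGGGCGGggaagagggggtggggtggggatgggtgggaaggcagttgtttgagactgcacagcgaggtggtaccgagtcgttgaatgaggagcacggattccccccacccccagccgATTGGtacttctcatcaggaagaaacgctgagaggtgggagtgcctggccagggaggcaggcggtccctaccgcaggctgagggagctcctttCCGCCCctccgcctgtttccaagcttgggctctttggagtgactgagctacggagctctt
Hapln1 (chr13:89540386-89540685, plus strand): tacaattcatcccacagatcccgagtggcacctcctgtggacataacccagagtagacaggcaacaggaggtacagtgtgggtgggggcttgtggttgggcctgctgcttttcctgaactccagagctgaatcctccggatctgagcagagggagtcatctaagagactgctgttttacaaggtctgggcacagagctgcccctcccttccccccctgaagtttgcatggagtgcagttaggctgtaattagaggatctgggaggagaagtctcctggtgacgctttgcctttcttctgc
Ncan (chr8:70120795-70121094, minus strand): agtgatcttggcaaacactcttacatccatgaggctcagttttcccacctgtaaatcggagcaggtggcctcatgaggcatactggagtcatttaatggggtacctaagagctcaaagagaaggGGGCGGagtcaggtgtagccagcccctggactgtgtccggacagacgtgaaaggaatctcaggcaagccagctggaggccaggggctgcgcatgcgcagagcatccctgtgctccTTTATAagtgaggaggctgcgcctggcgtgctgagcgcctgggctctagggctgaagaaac
Bcan (chr3:88000307-88000606, minus strand): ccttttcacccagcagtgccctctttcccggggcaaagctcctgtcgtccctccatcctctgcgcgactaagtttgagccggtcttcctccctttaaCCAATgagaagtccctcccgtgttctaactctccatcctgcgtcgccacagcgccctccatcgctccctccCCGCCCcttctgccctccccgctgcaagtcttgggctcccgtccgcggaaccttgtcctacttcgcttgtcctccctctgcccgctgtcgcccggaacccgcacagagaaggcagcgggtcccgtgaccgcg
The Vcan window held a CCAAT box at -103 from the start and GC boxes at -219 and -10, with 61% GC and 12 CpG. The Bcan window held a CCAAT box at -153 and a GC box at -82, with 64% GC and 24 CpG, whereas the Ncan window held a GC box at -126 and a TATA box at -11, with 56.7% GC and 9 CpG. None of the 3 motifs was in the Hapln1 window, which had 54.3% GC and 3 CpG. Of 32851 RefSeq windows of the same length, 13.6% held the TATA box, 37.4% the CCAAT box and 35.7% the GC box, and the median window had 7 CpG. A match is a string of letters and not a shown binding site.

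Vcan was lower in the Nmd-/- library of every replicate number, by nearly the same proportion each time. Vcan encodes versican, the lectican of migratory pathways and of connective tissue. It measured 4.29, 11.6 and 4.88 FPKM in Nmd-/- replicates 1, 2 and 3, against 6.84, 18.5 and 7.74 FPKM in Nmd+/+ replicates 1, 2 and 3. Replicate 2 of both genotypes lay above the other 4 libraries, as it did for 20.6% of all tested genes, and because of it the groups overlapped. The FPKM ratios within replicate numbers 1, 2 and 3 were 0.627, 0.627 and 0.630, and the Cufflinks intervals of the paired libraries were apart in 3 of 3 numbers. They were also apart in 3 of 3 numbers for Tnr, whose ratio in number 2 was 1.26, and in 2 of 3 for Ncan and Bcan. The share of all tested genes with intervals apart was not computed, so nothing is read from this count. The Vcan intervals reached from 10.3% to 21.03% above the value, the width that counting error alone would give for 90.4 to 380 fragments. That equivalent was itself derived from the interval widths, so it is no separate check on them. In the GENCODE M21 annotation Vcan has 8 coding transcripts of 294 to 12427 bases. How fragments were assigned among them, and the effect on FPKM and intervals, was not examined.

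The means of Vcan were 6.925 ± 4.065 FPKM in Nmd-/- and 11.03 ± 6.49 FPKM in Nmd+/+ (SD, n = 3 each), a ratio of 0.628. On the log2(FPKM + 1) scale the difference was -0.59 with SE 0.44 (95% interval -1.61 to 0.43), against a median of 0.02 over all 14611 tested genes. With the replicate number as a block, a pairing that no label states, the SE was 0.10 and the interval -0.82 to -0.36. Without replicate 2 of both genotypes the difference was -0.57 (SE 0.16), and leaving out single libraries gave from -0.98 (without Nmd-/- replicate 2) to -0.18 (without Nmd+/+ replicate 2). Of the tested genes 10.6% were lower in Nmd-/- in 3 of 3 replicate numbers, 1.07% were so with replicate 2 of both genotypes above the other libraries, and 0.0753% had a ratio under 0.7, a bound set after the values were seen, in every number. Of the 5 members in the table of tested genes, 0 passed an adjusted p of 0.05 in limma, with or without the block, beside 0% of all tested genes in either fit, and nothing is read from this count since the same contrast chose the members. At an unadjusted p under 0.05, the shares of all tested genes were 0.445% and, with the block, 4.87%.

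**Figure D2:**
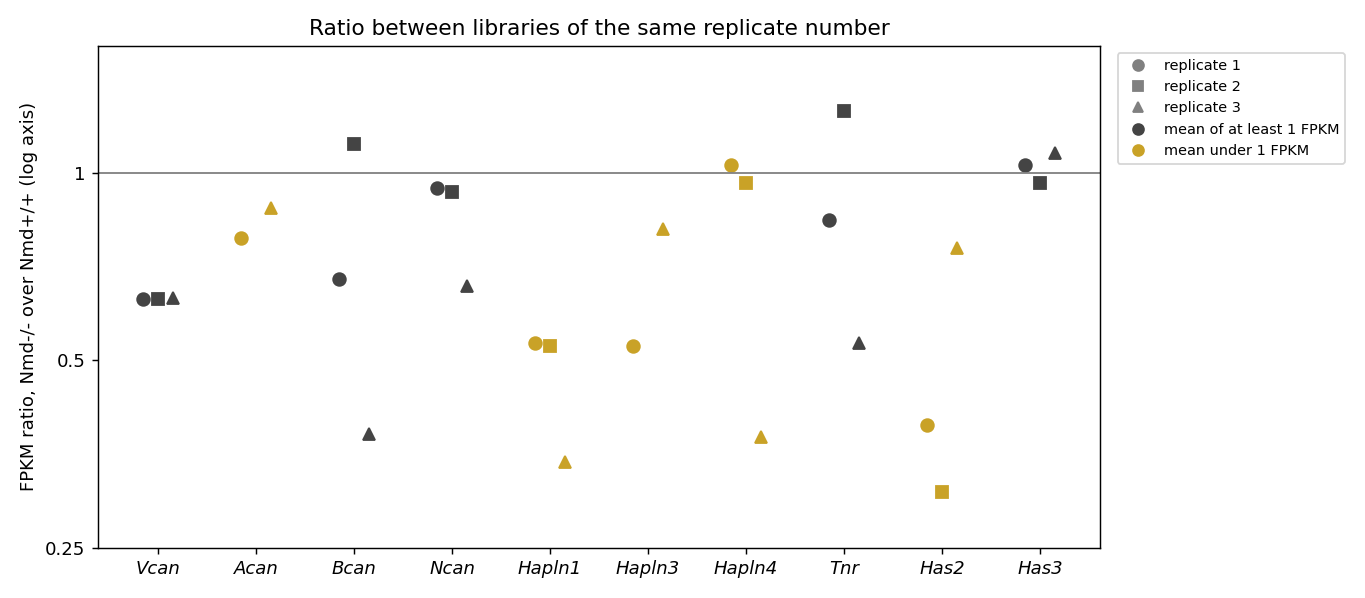
FPKM ratio of the Nmd-/- over the Nmd+/+ library of the same replicate number (log axis), for each matrix gene, with the marker shape giving the number and the colour whether the mean reached 1 FPKM. The 3 Vcan ratios lie between 0.627 and 0.630, while those of Bcan lie between 0.380 and 1.11, and no ratio is drawn for replicate 2 of Acan and Hapln3, where 1 library held the equivalent of fewer than 3 fragments.

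Neurocan, a lectican of growing axons and their surroundings, was lowest in replicate 2, where Vcan was highest. Ncan measured 18.9, 9.51 and 14.2 FPKM in Nmd-/- replicates 1, 2 and 3, against 19.998, 10.2 and 21.6 FPKM in Nmd+/+ replicates 1, 2 and 3. Replicate 2 of both genotypes lay below the other 4 libraries, as for 18.8% of all tested genes, and the groups overlapped. Its ratios within replicate numbers 1, 2 and 3 were 0.946, 0.932 and 0.659, so that it was lower in Nmd-/- in 3 of 3 numbers, mainly in number 3. The means were 14.2 ± 4.7 FPKM in Nmd-/- and 17.3 ± 6.15 FPKM in Nmd+/+ (SD, n = 3 each), and the log2 difference was -0.25 (SE 0.33, 95% interval -1.01 to 0.52). It was -0.32 without replicate 2 of both genotypes, and leaving out single libraries gave from -0.56 (without Nmd+/+ replicate 2) to -0.0035 (without Nmd-/- replicate 2). Ncan had the narrowest intervals of the members, no more than 4.13% above its value, a width equivalent to at least 2343 fragments in each library.

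Brevican, the lectican of astrocytes and oligodendrocyte precursors, differed in direction between replicate numbers. Bcan measured 3.001, 2.07 and 1.61 FPKM in Nmd-/- replicates 1, 2 and 3, against 4.45, 1.86 and 4.24 FPKM in Nmd+/+ replicates 1, 2 and 3. Nmd+/+ replicates 1 and 3 lay above every Nmd-/- library, and Nmd+/+ replicate 2 lay among them. The ratios were 0.675, 1.11 and 0.380 in numbers 1, 2 and 3, and the means 2.23 ± 0.71 FPKM in Nmd-/- and 3.52 ± 1.44 FPKM in Nmd+/+ (SD, n = 3 each). The log2 difference was -0.45 (SE 0.28, 95% interval -1.11 to 0.21, or -0.85 to -0.05 with the block), and -0.72 without replicate 2 of both genotypes. Leaving out single libraries gave from -0.75 (without Nmd+/+ replicate 2) to -0.28 (without Nmd+/+ replicate 1). Aggrecan was at the edge of detection: Acan lay between 0.00555 and 0.0717 FPKM in Nmd-/- and between 0.0426 and 0.0815 FPKM in Nmd+/+, values that rest on the equivalent of 1.99 to 30.0 fragments. It was lower in Nmd-/- in 3 of 3 numbers, with intervals apart in 1 of them, number 2, where the Nmd-/- value rests on fewer than 3 fragments.

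The composition of the lectican pool differed more between replicate numbers than between genotypes. Vcan made up 16.3%, 50.03% and 23.5% of the summed lectican FPKM in Nmd-/- replicates 1, 2 and 3, against 21.8%, 60.4% and 23.02% in Nmd+/+ replicates 1, 2 and 3. Ncan made up 72.01%, 41.01% and 68.4% in Nmd-/- and 63.8%, 33.35% and 64.1% in Nmd+/+, in the same order of replicates. In replicate 2 the FPKM of Vcan exceeded that of Ncan, with ratios of 1.22 in Nmd-/- and 1.81 in Nmd+/+, against 0.227 to 0.359 in the other 4 libraries. Such ratios and shares between genes depend on the transcript lengths used for FPKM. Ncan has 1 coding transcript of 7195 bases in GENCODE M21, against the 8 of Vcan. In Nmd+/+ replicate 2 the interval width of Vcan was equivalent to 380 fragments and that of Ncan to 2343, so which gene led is not settled by FPKM. The share of Vcan averaged 29.95 ± 17.75% in Nmd-/- and 35.1 ± 22.0% in Nmd+/+ (SD, n = 3 each), and its difference within replicate numbers was -5.47, -10.4 and 0.458 percentage points. The mean difference of -5.14 points turned to 1.67 points without Nmd-/- replicate 1 and to 7.535 points without Nmd+/+ replicate 2. The log2 ratio of Vcan to Ncan differed between genotypes by -0.59 and -0.57 in numbers 1 and 2, and by -0.06 in number 3. Both genes were lower in Nmd-/- in every number, but only in number 3 by nearly the same proportion (ratios of 0.630 for Vcan and 0.659 for Ncan). The summed lectican FPKM was 26.3, 23.2 and 20.8 in Nmd-/- and 31.4, 30.6 and 33.6 in Nmd+/+, and these sums, like the set itself, were chosen with the values in view. Among single tested genes, 2.67% had groups that did not overlap, 0.91% toward lower values in Nmd-/-, and none of the 5 tested members was among them.

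**Figure D3:**
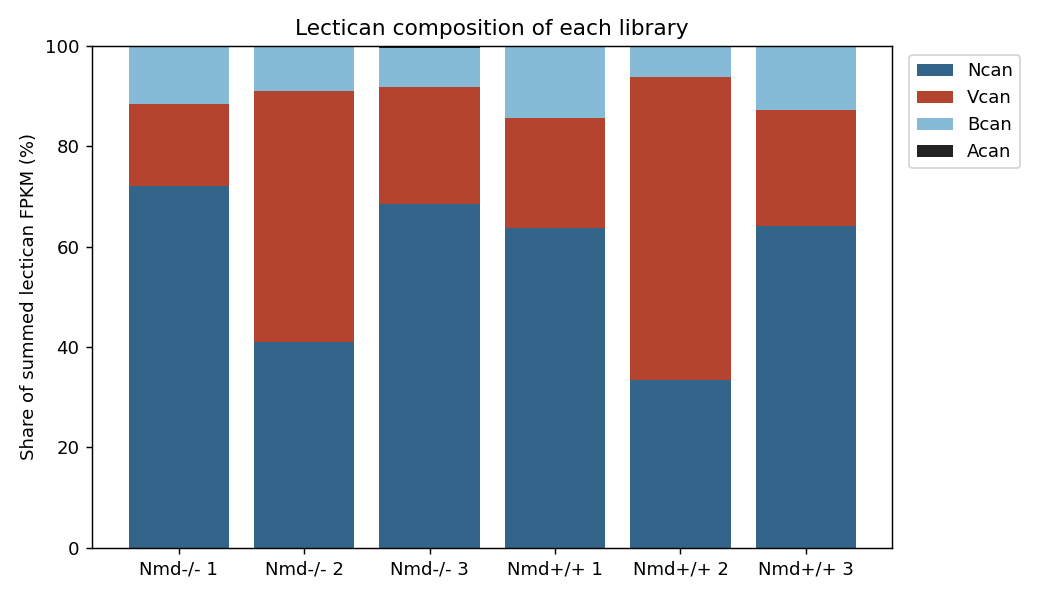
Share of Ncan, Vcan, Bcan and Acan in the summed lectican FPKM (vertical axis, percent) of each library, Nmd-/- libraries on the left and Nmd+/+ libraries on the right. Vcan takes 50.03% in Nmd-/- replicate 2 and 60.4% in Nmd+/+ replicate 2 and between 16.3% and 23.5% in the other 4 libraries, and Acan is too low to be seen in most bars.

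The link protein genes, whose products lock lecticans onto hyaluronan, were all below 1 FPKM. Hapln1 encodes the link protein of cartilage and of perineuronal nets. It measured 0.0934, 0.0686 and 0.0642 FPKM in Nmd-/- replicates 1, 2 and 3, against 0.175, 0.130 and 0.187 FPKM in Nmd+/+ replicates 1, 2 and 3. The highest Nmd-/- library was thus below the lowest Nmd+/+ library, at means of 0.0754 ± 0.01575 and 0.164 ± 0.02995 FPKM (SD, n = 3 each), and the ratios within numbers were 0.533, 0.527 and 0.343. The Cufflinks intervals were apart in 1 of 3 numbers, since the values rest on the equivalent of 16 to 46.7 fragments. Hapln1 did not enter the test, and of the 6237 genes that, like it, had a mean under 1 FPKM and a value above 0 in all 6 libraries, 7.22% had groups that did not overlap and 3.35% did so toward lower values in Nmd-/-. Hapln4, the brain link protein gene next to Ncan, lay between 0.204 and 0.422 FPKM in Nmd-/- and between 0.385 and 0.542 FPKM in Nmd+/+. Its low value was that of Nmd-/- replicate 3, where the ratio within the number was 0.377, against 1.03 and 0.963 in numbers 1 and 2. Hapln3 lay between 0.170 and 0.194 FPKM in Nmd-/- and between 0.0438 and 0.368 FPKM in Nmd+/+, with overlapping groups and intervals in every number. Hapln2, the link protein gene of myelinated fibres and no member of the set, lay between 0.0832 and 0.1469 FPKM in the 6 libraries.

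Tenascin-R, a glycoprotein of oligodendrocytes and some interneurons that cross-links lecticans, shared the replicate pattern of Bcan. Tnr measured 2.79, 2.18 and 1.71 FPKM in Nmd-/- replicates 1, 2 and 3, against 3.32, 1.74 and 3.21 FPKM in Nmd+/+ replicates 1, 2 and 3. Nmd+/+ replicate 2 fell among the Nmd-/- libraries, and the ratios were 0.839, 1.26 and 0.533. The means were 2.23 ± 0.54 FPKM in Nmd-/- and 2.75 ± 0.88 FPKM in Nmd+/+ (SD, n = 3 each), with a log2 difference of -0.20 (SE 0.22, 95% interval -0.72 to 0.32), and -0.41 without replicate 2 of both genotypes. Leaving out single libraries gave from -0.42 (without Nmd+/+ replicate 2) to -0.08 (without Nmd-/- replicate 3), with -0.09 without Nmd+/+ replicate 1 and -0.11 without Nmd+/+ replicate 3. For both Bcan and Tnr the difference was thus largest in number 3 and of opposite sign in number 2.

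The hyaluronan synthase genes differed from each other in their replicate pattern. Has3, whose enzyme makes short hyaluronan chains, measured 1.53, 0.718 and 1.58 FPKM in Nmd-/- replicates 1, 2 and 3, against 1.48, 0.744 and 1.47 FPKM in Nmd+/+ replicates 1, 2 and 3. It had about the same value in both genotypes within each number, with ratios of 1.03, 0.965 and 1.075, while replicate 2 stood at 0.481 times the mean of the other libraries. Its log2 difference was 0.02 (SE 0.22, 95% interval -0.50 to 0.55), with leave-one-out values from -0.15 to 0.21, and with overlapping Cufflinks intervals in 3 of 3 numbers. Has2, the main synthase of embryonic mesenchyme, measured 0.0262, 0.0819 and 0.0622 FPKM in Nmd-/- replicates 1, 2 and 3, against 0.0667, 0.266 and 0.0822 FPKM in Nmd+/+ replicates 1, 2 and 3. Like Vcan it was highest in replicate 2 within each genotype and lower in Nmd-/- in 3 of 3 numbers, but its groups overlapped and it rests on the equivalent of 3.2 to 34.1 fragments. Among genes under a mean of 1 FPKM with values in all libraries, 12.6% were lower in Nmd-/- in 3 of 3 numbers. Has1 lay between 0.1103 and 0.233 FPKM.

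The profile of Vcan over the 6 libraries stood apart from those of the other 4 tested members. Members under a mean of 1 FPKM were not compared, among them Has2, which was also highest in replicate 2 of each genotype. The SD of log2(FPKM + 1) over all libraries was 0.71 for Vcan, more than that of 98.8% of tested genes. It was 0.48 for Ncan (94.6%), 0.46 for Bcan (93.4%), 0.30 for Tnr (75.8%) and 0.28 for Has3 (71.5%). As a measure of likeness, the root mean square distance between profiles was taken after removing each gene's mean, with 0 for identical profiles. Vcan lay at 0.996 from Ncan, 0.88 from Has3, 0.86 from Bcan and 0.79 from Tnr. The other 4 lay between 0.16 (Bcan and Tnr) and 0.37 (Bcan and Has3) from each other.

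The gene whose profile was most like that of Vcan among all tested genes was Sox10, a transcription factor of oligodendrocyte precursors and neural crest, at a distance of 0.16, where the own spread of Vcan about its mean was 0.64. Sox10 measured 0.860, 3.78 and 0.620 FPKM in Nmd-/- replicates 1, 2 and 3, against 1.86, 5.03 and 1.95 FPKM in Nmd+/+ replicates 1, 2 and 3. As with Vcan, each Nmd-/- library was below its Nmd+/+ counterpart and replicate 2 was highest within each genotype. The next genes were Bdh2, a dehydrogenase gene (0.22), Hscb, a cochaperone gene of iron-sulfur cluster assembly (0.24), Fxyd5, which encodes a regulator of the sodium pump (0.24), the immediate early gene Egr1 (0.25) and the lysosomal protease gene Ctsl (0.25). For Ncan the 6 most similar genes lay closer, between 0.04 and 0.05: Car10, which encodes a carbonic anhydrase-related protein, Atcay, the neurofilament gene Nefh, the retinoic acid binding protein gene Crabp1, the complexin gene Cplx1 and Fam155a. Distances over 6 libraries that share replicate structure describe these libraries only.

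**Figure D4:**
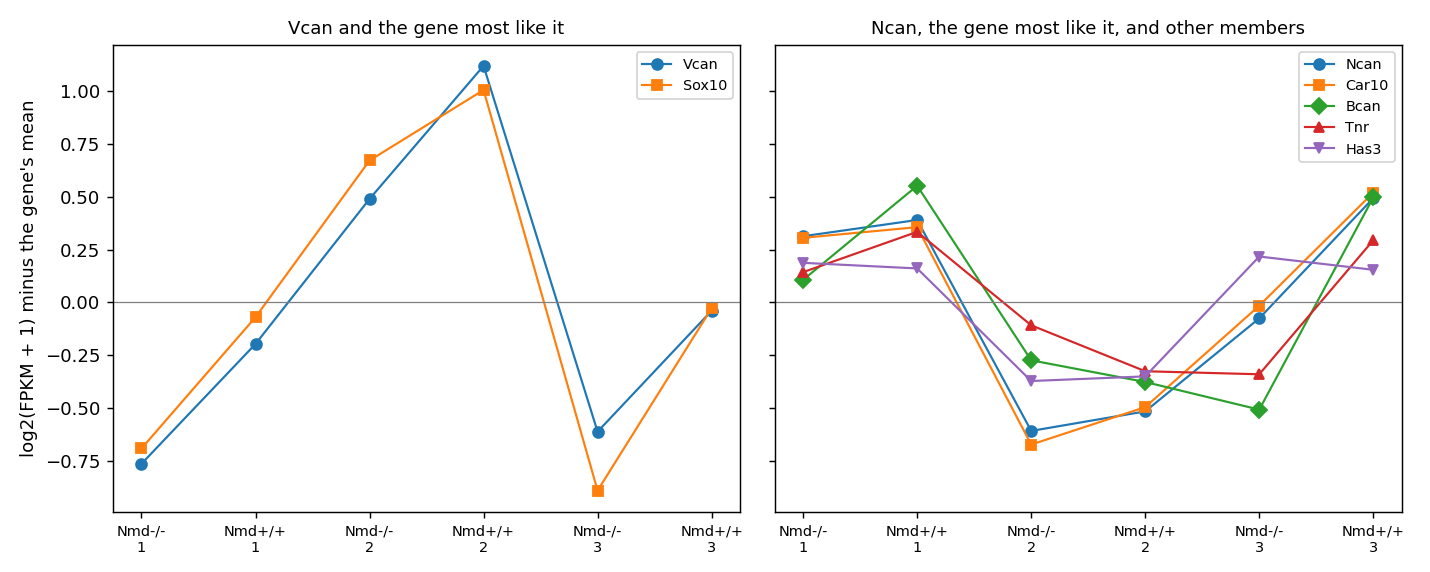
Log2(FPKM + 1) minus each gene's mean over the 6 libraries (vertical axis), with the Nmd-/- library left of the Nmd+/+ library of the same replicate number and lines drawn only to guide the eye. Vcan and Sox10 (left panel, distance 0.16) are highest in replicate 2, where Ncan, Car10, Bcan, Tnr and Has3 (right panel) lie below 0 in both genotypes.

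Markers of other cells moved with these patterns, and their part in them was not tested. All 11 fibroblast and meningeal markers were above 0 in every library, and the collagen gene Col1a1 reached 51.1 FPKM in replicate 2 of Nmd-/- and 38.3 FPKM in that of Nmd+/+, against at most 1.36 FPKM in the other 4 libraries. Within replicate 2 the marker sum was 192.5 FPKM in Nmd-/- and 159 FPKM in Nmd+/+, whereas Vcan was the lower of the pair in Nmd-/-. The 8 oligodendrocyte lineage markers, a list that includes Sox10, summed to 42.25, 53.1 and 30.5 FPKM in Nmd-/- replicates 1, 2 and 3, against 67.3, 56.3 and 51.02 FPKM in Nmd+/+ replicates 1, 2 and 3. That sum was lower in Nmd-/- in every number, as Vcan was, but was not highest in replicate 2 of Nmd+/+. The sums of neuron markers given above were lowest in replicate 2 of each genotype, as Ncan and Has3 were. The 5 Schwann and neural crest markers summed to 3.365, 4.31 and 2.25 FPKM in Nmd-/- replicates 1, 2 and 3, against 3.38, 8.42 and 2.895 FPKM in Nmd+/+ replicates 1, 2 and 3. This sum was highest in replicate 2 of each genotype and lower in Nmd-/- in 3 of 3 numbers, as Vcan was, but nearly equal in number 1. Only 1 of the 5 markers, Ngfr, reached a mean of 1 FPKM. Ngfr was higher in Nmd-/- in number 1 (2.03 against 1.92 FPKM) and lower in numbers 2 and 3. The markers did not all share the pattern, as Foxd3 was lowest in Nmd-/- replicate 2 (0.619 FPKM). Microglial markers summed to at most 1.855 FPKM in Nmd-/- and 1.27 FPKM in Nmd+/+. The 5 endothelial markers summed to between 10.2 and 17.8 FPKM in Nmd-/- and between 9.24 and 15.9 FPKM in Nmd+/+. The 5 markers of dividing cells summed to between 308 and 397 FPKM in Nmd-/- and between 261 and 392 FPKM in Nmd+/+.

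Whether the genes that build, modify and bind this matrix differed between genotypes was examined in 8 lists of other genes. Of 77 such genes 76 were in the files and 56 entered the test, and 0 passed in either direction, with the 0% of all tested genes beside them. At an unadjusted p under 0.05 in limma there were 0 of 56, and 5 of 56 with the block, where 0 passed the adjustment either. By mean log2 value 37 of 56 were higher in Nmd-/- and 19 lower, with a median log2 difference of 0.06. Of all tested genes 56% were higher and 44% lower, with a median of 0.02, and counts by mean in the lists below are of the same kind.

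Genes for proteins that cut lecticans or hold those proteases in check were higher in Nmd-/- by their means for 9 of 10 tested. Their median log2 difference was 0.17, and 0 of 10 passed. Adamts8, which encodes a protease of the aggrecanase family, averaged 6.65 ± 1.87 FPKM in Nmd-/- and 5.15 ± 1.42 FPKM in Nmd+/+ (SD, n = 3 each), a log2 difference of 0.31 (SE 0.23) with a limma adjusted p of 0.9997. Adamts1, a protease gene whose product cuts versican, averaged 12.15 ± 0.51 FPKM in Nmd-/- and 10.7 ± 1.52 FPKM in Nmd+/+ (log2 difference 0.18, SE 0.14). Timp2, a metalloproteinase inhibitor gene, averaged 221.6 ± 15.8 FPKM in Nmd-/- and 199.2 ± 25.5 FPKM in Nmd+/+ (log2 difference 0.16, SE 0.15). All 3 were higher in Nmd-/- in 3 of 3 numbers, as 14.9% of all tested genes were. Genes for partners of versican in the matrix were higher by their means for 5 of 5, with a median of 0.28 and 0 passing. Fibroblast and meningeal markers were higher by their means for 9 of 10 tested (median 0.14) and markers of dividing cells for 5 of 5 (median 0.21), also with 0 passing, and their part in this was not tested. For Fn1, the fibronectin gene, the mean was 118.6 ± 68.7 FPKM in Nmd-/- and 98.6 ± 73.2 FPKM in Nmd+/+ (SD, n = 3 each), with replicate 2 highest in each genotype at 197.8 FPKM in Nmd-/- and 181.4 FPKM in Nmd+/+. Fbln1, which encodes fibulin-1, averaged 15.5 ± 2.6 FPKM in Nmd-/- and 13.02 ± 4.34 FPKM in Nmd+/+ (SD, n = 3 each). Fn1 thus shared with Vcan the high replicate 2, but not the lower values in Nmd-/-.

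Genes for enzymes of chondroitin sulfate synthesis, which build the sugar chains of lecticans, were spread evenly about 0 in their log2 differences. By their means 10 of 17 tested genes were higher, with a median log2 difference of 0.03 and 0 passing. Chpf, a polymerizing factor gene and the most abundant of them, averaged 14.2 ± 3.0 FPKM in Nmd-/- and 13.8 ± 4.6 FPKM in Nmd+/+ (SD, n = 3 each). B3galt6, which encodes an enzyme of the linker to the core protein, averaged 3.33 ± 0.26 FPKM in Nmd-/- and 4.06 ± 0.40 FPKM in Nmd+/+ (log2 difference -0.22, SE 0.13), and Dse, which converts chondroitin to dermatan sulfate, averaged 3.755 ± 0.802 FPKM in Nmd-/- and 3.06 ± 1.25 FPKM in Nmd+/+ (0.26, SE 0.24). Genes of hyaluronan supply, turnover and binding were higher for 5 of 8 by their means, with a median of 0.06 and 0 passing. Ugdh, which makes the glucuronic acid donor for hyaluronan, averaged 25.4 ± 2.8 FPKM in Nmd-/- and 27.1 ± 8.3 FPKM in Nmd+/+. Hyal2, a hyaluronidase gene, averaged 13.7 ± 1.0 FPKM in Nmd-/- and 12.3 ± 2.6 FPKM in Nmd+/+. Tmem2, which encodes a hyaluronan-degrading surface protein, averaged 8.72 ± 0.49 FPKM in Nmd-/- and 7.55 ± 1.001 FPKM in Nmd+/+. Per length, all 3 stood above Has2 and Has3 in both genotypes.

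Among other neural proteoglycans 3 of 6 tested genes were higher by their means, with a median of -0.0031 and 0 passing. Ptprz1, the gene of phosphacan and its receptor form, averaged 35.95 ± 3.88 FPKM in Nmd-/- and 42.7 ± 2.8 FPKM in Nmd+/+ (SD, n = 3 each), a log2 difference of -0.24 (SE 0.13), and was lower in Nmd-/- in 3 of 3 numbers. Sdc3, a syndecan gene, averaged 97.2 ± 29.5 FPKM in Nmd-/- and 103.3 ± 53.8 FPKM in Nmd+/+ with a log2 difference of 0.03, opposite in sign to that of its means, and Gpc1, a glypican gene, 20.4 ± 1.9 FPKM in Nmd-/- and 18.3 ± 3.7 FPKM in Nmd+/+. Genes for receptors of chondroitin sulfate were higher by their means for 3 of 4, with a median of 0.08 and 0 passing. Of these genes, Ptprs averaged 66.15 ± 11.02 FPKM in Nmd-/- and 65.6 ± 19.5 FPKM in Nmd+/+. Also in that list, Ptprf averaged 35.1 ± 5.8 FPKM in Nmd-/- and 30.4 ± 3.1 FPKM in Nmd+/+. The Nogo receptor relative Rtn4rl1 averaged 2.82 ± 1.13 FPKM in Nmd-/- and 2.53 ± 1.08 FPKM in Nmd+/+. Of the relatives of the 10 members only Tnc, the embryonic tenascin gene, reached the test. Tnc averaged 47.6 ± 5.3 FPKM in Nmd-/- and 37.8 ± 19.5 FPKM in Nmd+/+, a log2 difference of 0.44 (SE 0.34, limma adjusted p = 0.9997), and exceeded Tnr in both genotypes. Genes of neurons that carry perineuronal nets were lower for 4 of 5 tested, with a median of -0.10 and 0 passing: Sema3a, a guidance molecule held in nets, averaged 14.9 ± 1.4 FPKM in Nmd-/- and 16.0 ± 0.9 FPKM in Nmd+/+. Nptx1, a neuronal pentraxin gene, averaged 3.375 ± 1.063 FPKM in Nmd-/- and 4.15 ± 1.97 FPKM in Nmd+/+. The general neuron markers were lower by their means for 10 of 10 (median -0.15) with 0 passing, and their part in this was not tested.

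**Figure D5:**
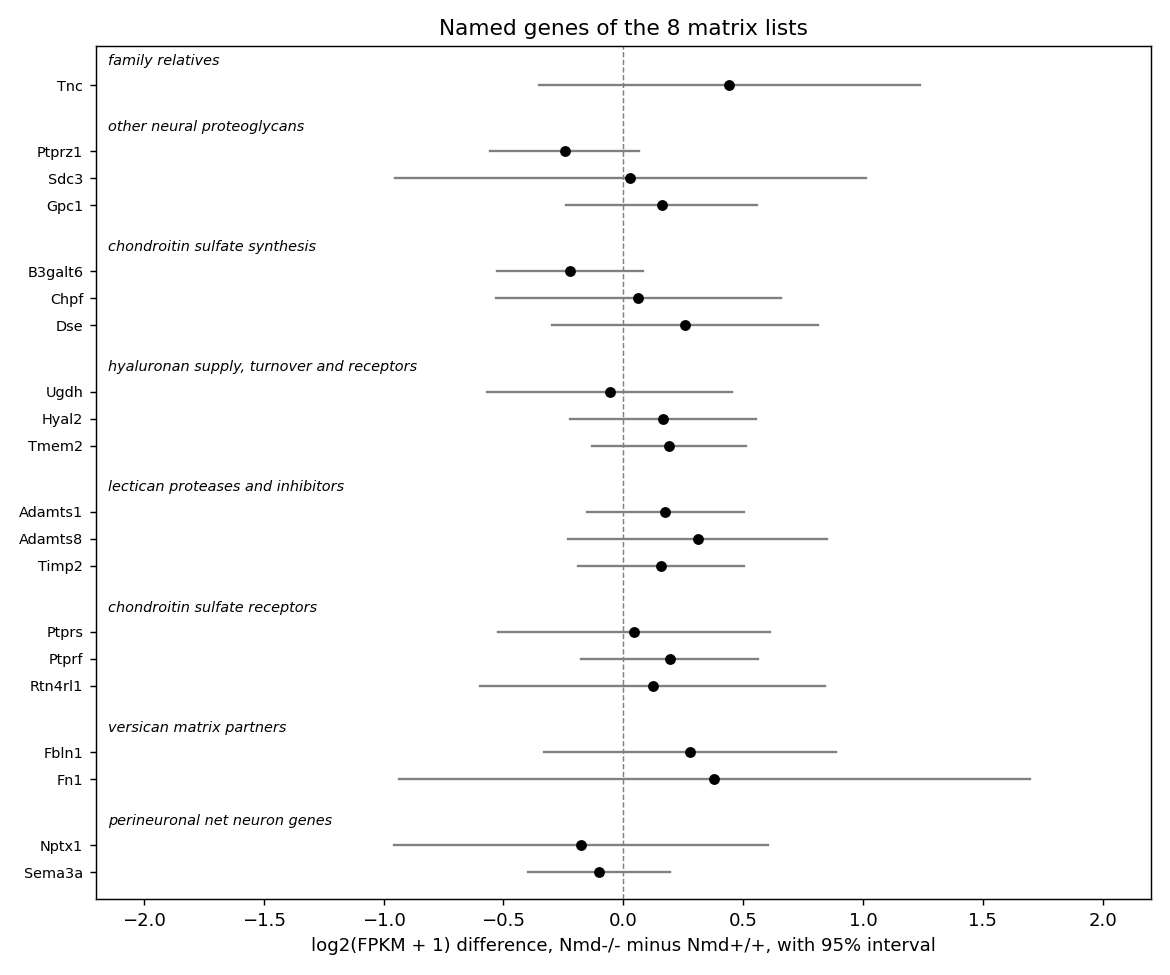
Log2(FPKM + 1) difference, Nmd-/- minus Nmd+/+ (horizontal axis), of the named genes of the 8 matrix lists, as points with 95% intervals from limma. Every interval shown includes 0, from Tnc at 0.44 to Ptprz1 at -0.24.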

How the data were processed

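RNA-seq of 3 Nmd-/- and 3 Nmd+/+ primary mouse motoneuron cultures was used as deposited. The authors' values are gene-level FPKM with 95% interval bounds and a status, in the Cufflinks format, per the file headers. Tools named in the submitters' processing notes are FastQC 0.10.1, Trim Galore 0.4.0, cutadapt 1.8, SAMtools 1.3, Cufflinks 2.2.1 and GRCm38. For the annotation release, the aligner's version and the use of strand, nothing is stated in the sources used here. FPKM are relative to each library's own total.

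Counts are not in the tables: between 23.7% and 24.7% of low values corresponded to whole fragments within 0.02, so fragments were estimated from interval widths, as the number whose counting error gives that width. They summed to between 15381970 and 23072408 per library, and cover error within a library only. Loci start from 0 in the files and are printed from 1.

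The fit was limma 3.58.1 (R 4.3.3) with an intensity trend on log2(FPKM + 1), genotype as the only term, over the 14611 genes with a mean of at least 1 FPKM and an accepted status in every library. Fold changes on that scale understate changes of low genes. P-values are two-sided and Benjamini-Hochberg adjusted over all tested genes, with a threshold of 0.05. The procedure was tested on simulated data. After subtracting group means, libraries of the same number were correlated across genes (0.82, 0.696 and 0.387 for numbers 1, 2 and 3). They were taken as pairs on this ground, no label saying what a number marks. Correlations between libraries of different numbers are not given, so these values do not show that this pairing is better than another. Within numbers 2 and 3 the libraries also differed in Xist, near 0 in 1 genotype only.

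The members and lists were chosen with earlier results of these data known. Named genes are the members, the most abundant gene and those with the 2 smallest p of each list, and the 6 genes closest in profile to Vcan and to Ncan. Alternatives were a replicate block, a pseudocount of 0.1, no filter, a higher filter (mean 5 FPKM), scaling by median of ratios or quantiles, sample quality weights, and leaving out libraries.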

Additional observations from a re-analysis of the deposited data

How the results depend on the processing

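No gene, list gene or member passed under any of the 14 alternatives. Vcan was lower in Nmd-/- under all 14, between -0.98 and -0.18 on the log2 scale, and the values without single libraries spanned that same range. With the replicate block it was -0.59 with a smaller SE (0.10), and the block changed no call. A pseudocount of 0.1 gave -0.66, median-of-ratios scaling -0.61 and sample quality weights -0.48. Ncan was lower under all 14 and Bcan and Tnr under the 13 that kept them, since a mean of at least 5 FPKM removed Bcan, Tnr and Has3. Has3 kept its sign under 10 of 13. The mean share of Vcan among the lecticans kept its sign under 6 of 8, with values without single libraries from -15.2 to 7.535 percentage points. For Vcan the interval was -1.61 to 0.43 without the block and -0.82 to -0.36 with it. Acan, Has2 and the link protein genes are limited by depth.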

Other observations

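A bound on the ratio was chosen after the values of Vcan had been seen. Of 14611 tested genes, 11 (0.0753%) had an Nmd-/- over Nmd+/+ ratio under 0.7 in each of the 3 numbers. Ighmbp2, the gene that carries the nmd allele, was one of them, with ratios of 0.610, 0.605 and 0.546 in numbers 1, 2 and 3. Vcan was the most abundant of the 11 at a mean of 8.98 FPKM, and the other 10 averaged between 1.015 FPKM (Ccl28) and 1.615 FPKM (Gm14620). They included Crhbp, which encodes a binding protein of corticotropin-releasing hormone, with ratios of 0.618, 0.698 and 0.639. Also among them were 2700069I18Rik, Gm15289, Gm15726, Gm17732 and Gm21742. These genes were picked by the contrast itself, so their ratios are a description of these 6 libraries.

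A further pattern, a high replicate 2 with lower values in Nmd-/-, was likewise set after Vcan had been seen, so its frequency is a description only. Replicate 2 of both genotypes lay above the other 4 libraries for 20.6% of tested genes, and such genes that were also lower in Nmd-/- in 3 of 3 numbers made up 1.07%, Vcan and Sox10 among them.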
